A study of Danio rerio with 6 samples.

Results

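The genes described here drive the cell cycle, and they were taken by name from a set of 60 zebrafish genes, 31 of DNA replication and 29 of mitosis. A gene counted as a member when its symbol matched a name in that set, with or without the a or b that marks a paralog. In all, 52 of the 60 names were matched to 53 of the 14211 genes in the table, 26 for replication and 27 for mitosis. RRM2 stood for 2 gene IDs, and the symbols BIRC5 and PRC1 were taken for birc5a and prc1b. The names mcm2, mcm7, tk1, dut, uhrf1, ccne2, cdc20 and incenp were not analysed here. All 53 entered the test, and none of them had a value of 0 in any library.

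Cells that divide first switch on replication genes, which load the MCM helicase at origins, make nucleotides and copy the DNA. They then switch on mitosis genes, which drive the cyclin-dependent kinase Cdk1, build the spindle and separate the chromosomes. The transcripts of both sets are low in resting cells, so in a tissue they mark the share of cells in cycle. The adult zebrafish heart is known to regenerate after injury by division of heart muscle cells, while endocardial, epicardial and immune cells of the wound divide too.

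RNA came from the apex of the ventricle of adult AB zebrafish, and every heart, controls included, had been cryoinjured, that is, frozen locally. Fish were injected into the peritoneal cavity with RO, an inhibitor of the gamma secretase that cleaves Notch receptors, or with its carrier DMSO, at 24 h and 48 h after injury, and apices were taken at 72 h. Each library pooled 3 hearts, with DMSO replicates 1, 2 and 3 and RO replicates 2, 3 and 4, so that p-values measure the spread between pools. Neither an uninjured heart nor another time is among the 6 libraries, and the cleavage of Notch was not measured.

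Between 3306018 and 4463303 reads per library lay behind the values, which summed to 971801 to 1036454 per library. Mitochondrially encoded genes took 10.2% to 12.2% of the reads of each library. Markers of the labelled tissue were present: the summed value of 10 cardiomyocyte genes was 33740 to 42200, and none of the markers of endothelium, epicardium, fibroblasts, macrophages or thrombocytes that were matched was at 0. The libraries hold all cell types of the apex, so fewer dividing cells and less RNA per dividing cell cannot be told apart.

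No cell cycle gene differed between RO and DMSO at the threshold, an adjusted p of 0.05 in limma-trend with Benjamini-Hochberg adjustment over all 14211 genes. The count was 0 of 26 replication genes and 0 of 27 mitosis genes, while 1.03% of all genes passed (147). At an unadjusted p below 0.05 there was 1 of the 53, against 13.4% of all genes, and edgeR and DESeq2 on the recovered reads called 0 of the 53 as well, where they called 1.1% and 1.69% of all genes (DESeq2 gave no adjusted p for 16 of the 53). At an adjusted p below 0.1 the count was again 0, against 2.24% of all genes. In none of the 53 were the RO libraries all above or all below the DMSO libraries, as they were in 18.7% of all genes (all above in 9.32%, all below in 9.35%).

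The log2 fold changes, as RO minus DMSO of mean log2(value + 0.5), were small in both directions. Among replication genes they ran from -0.36 to 0.53 with a median of 0.083, and 18 of 26 lay above 0. Mitosis genes ran from -0.20 to 0.48 with a median of 0.096, and 18 of 27 lay above 0. Over all genes the median was -0.010 and 48.4% lay above 0. A p that misses the threshold does not show that the groups are alike, so the 95% intervals, not adjusted for the number of genes, are given with the fold changes. For 47 of the 53 genes the whole interval lay within a 2-fold change either way, as it did for 78.3% of all genes. The 6 others were GINS1, GINS2, MCM3, MCM10, CDC6 and CCNB2, each of which rested on fewer than 60 reads per library. So did other members whose intervals stayed within 2-fold, such as GINS3 (9 to 21 reads), CDT1 (10 to 18) and RFC4 (16 to 33). For 23 of the 53 genes (43.4%) the interval lay within a 1.5-fold change, near the 40.7% of all genes.

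**Figure D1:**
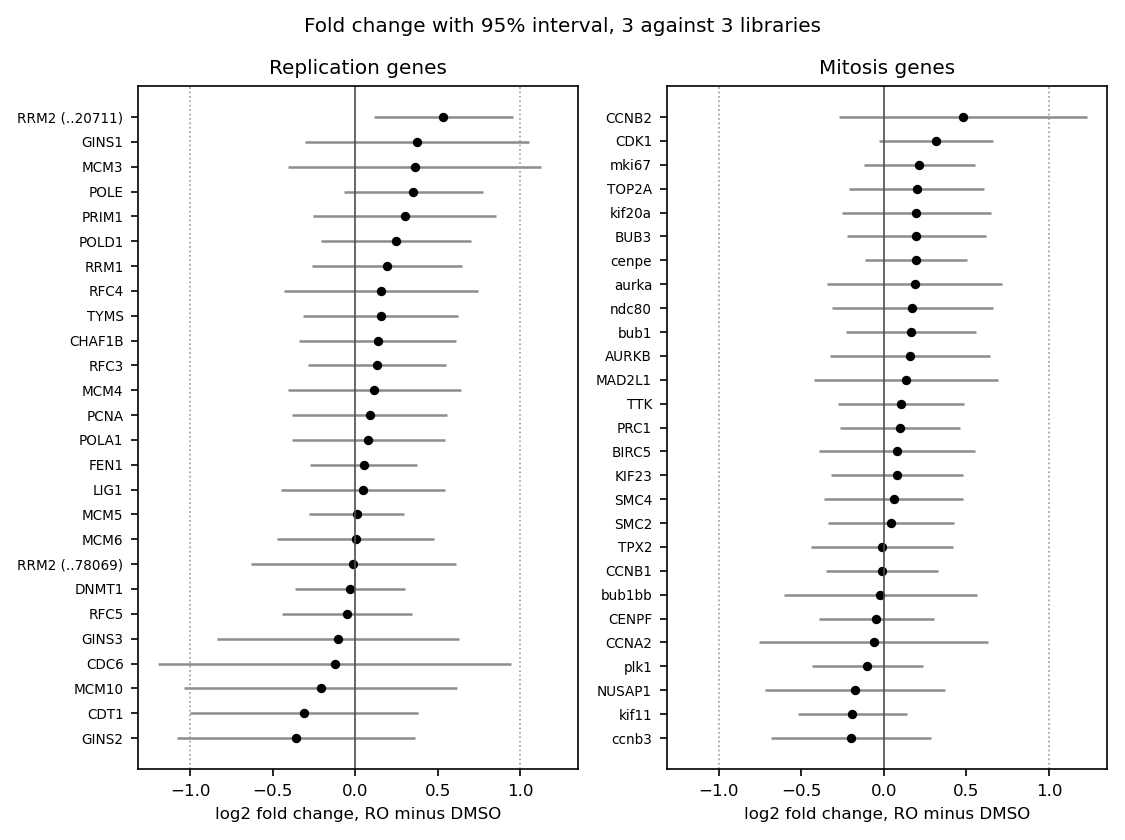
Log2 fold change of each replication gene (left) and mitosis gene (right), RO minus DMSO, with 3 libraries per group. Points are estimates and bars 95% intervals from limma-trend, unadjusted, and dotted lines mark a 2-fold change. All intervals but that of the first RRM2 gene (ENSDARG00000020711) cross 0.

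The highest levels came mostly from 1 pool. RO replicate 2 held the highest value of the 6 libraries in 20 of 26 replication genes (76.9%) and 22 of 27 mitosis genes (81.5%). It held the lowest in none, whereas over all genes it was highest in 21.8% and lowest in 22.3%. Both shares were the largest of the 6 libraries. The others were highest in 14.0% to 17.4% and lowest in 14.3% to 17.5% of all genes. RO replicate 4 was lowest in 14 replication genes (53.8%) and 11 mitosis genes (40.7%), against 15.2% of all genes. DMSO replicate 1 was lowest in 4 (15.4%) and 10 (37.0%), against 14.6% of all genes. RO replicate 2 was singled out after its values were seen, and no test is given for it.

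Averaged over the 26 replication genes, log2 levels centred on the mean of the 6 libraries were -0.080, 0.12 and -0.16 in DMSO replicates 1, 2 and 3 and 0.41, -0.027 and -0.26 in RO replicates 2, 3 and 4. For the 27 mitosis genes they were -0.14, 0.081 and -0.063 in DMSO and 0.37, 0.0076 and -0.25 in RO. The RO pools thus lay on both sides of the DMSO pools, 1 above them, 1 among them and 1 below. The difference of the group means was 0.082 for replication and 0.084 for mitosis genes, less than the SD between RO pools (0.34 and 0.31) or between DMSO pools (0.14 and 0.11).

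**Figure D2:**
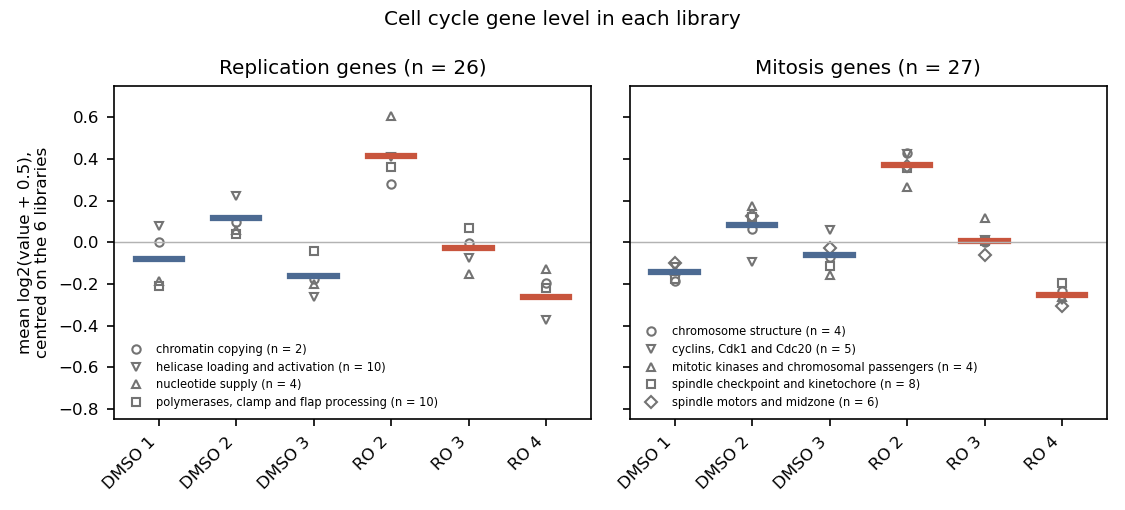
Mean log2(value + 0.5) of replication genes (left) and mitosis genes (right) in each library, centred for each gene on the 6 libraries. Thick bars are means over all genes of the set, blue for DMSO and red for RO, and open symbols are means for each role. RO replicate 2 is highest and RO replicate 4 lowest in both panels.

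The distance between the highest and the lowest library exceeded counting error. The replication genes summed to a value of 957 in RO replicate 2, from 3428 reads (95% exact Poisson interval 926 to 990, for counting error only). In the other libraries the sum was 560 (537 to 583, RO replicate 4) to 734 (707 to 761, DMSO replicate 2). Some of these intervals overlapped, such as those of DMSO replicates 1 (574 to 621) and 3 (599 to 653). The mitosis genes summed to 958 in RO replicate 2 (926.5 to 991), against 630 (606 to 655) in RO replicate 4 and 773.5 (746 to 802) in DMSO replicate 2. Both sums were highest and lowest in the same libraries. Such distances were not particular to cell cycle genes. The 6 epicardial genes, for example, summed to 3202 (3146 to 3259) in DMSO replicate 2 and 4864 (4792 to 4937) in RO replicate 2.

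Spread within RO was wider than within DMSO in 44 of the 53 genes, against 54.2% of all genes. All 53 were read in the same 3 pools per group, so the count does not rest on separate observations. The high values of RO replicate 2, a pool picked after they were seen, enter every RO spread, and no test is given. The median SD of log2 values was 0.42 in RO and 0.22 in DMSO for replication genes, and 0.30 and 0.18 for mitosis genes. For all genes it was 0.22 and 0.20. RO replicate 2 lay above both other RO pools in 49 of the 53, against 36.4% of all genes, and its log2 value exceeded the mean of RO replicates 3 and 4 by a median of 0.65 in replication and 0.47 in mitosis genes. The median of that difference over all genes was 0.0078.

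The sign of the median fold change turned when RO replicate 2 was left out. That pool was picked for its high values, so leaving it out lowered most fold changes by construction and is no separate result. Without RO replicate 2 the median log2 fold change was -0.083 for replication genes, with 7 of 26 above 0, and -0.047 for mitosis genes, with 11 of 27 above 0. Without RO replicate 4 the medians were 0.27 and 0.23, with 23 of 26 and 24 of 27 above 0. RO replicate 4 was likewise picked for its low values, so this rise is by construction too and no separate result. Over all genes 48.9% lay above 0 without RO replicate 2, and 6975 of 14211 without RO replicate 4. No cell cycle gene of the 53 passed the threshold either way, and without RO replicate 2 the share of all genes that passed was 0.668%.

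**Figure D3:**
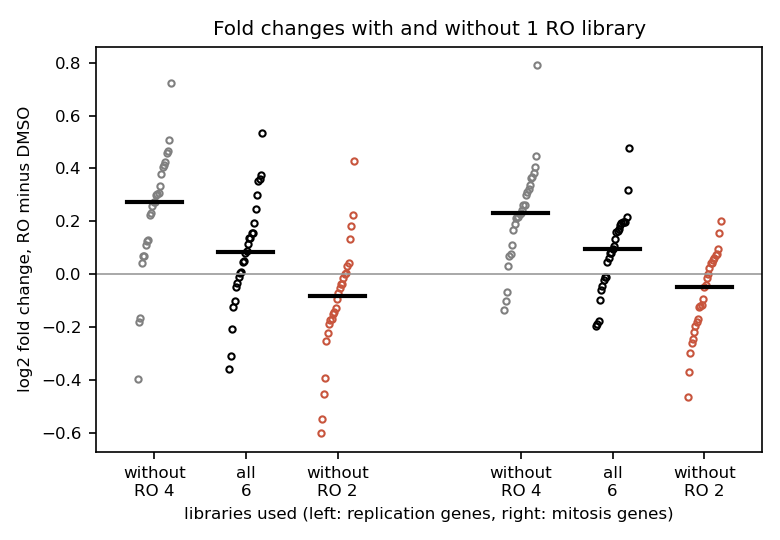
Log2 fold change of each replication gene (left side) and mitosis gene (right side), RO minus DMSO, with all 6 libraries and without RO replicate 4 or RO replicate 2. Circles are genes and bars medians. The medians are 0.083 and 0.096 with all libraries and fall below 0 without RO replicate 2.

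Markers of some other cells were also high or low in that pool, and others were not. The summed value of 7 thrombocyte genes was 345.5 in RO replicate 2, where 4 of the 7 were highest, 289 and 212 in RO replicates 3 and 4, and 158 to 197 in DMSO. Their mean centred log2 level was 0.57 in RO replicate 2 and -0.47 to 0.31 elsewhere. The 9 macrophage genes summed to 523 in RO replicate 2, against 364 and 445 in RO replicates 3 and 4 and 283 to 467 in DMSO. Of the 9, 2 were highest in RO replicate 2, 2 in RO replicate 4 and 4 in DMSO replicate 2, and their mean centred log2 level was 0.29 in RO replicate 2 and 0.28 in RO replicate 4, the pool lowest for cell cycle genes. The 6 epicardial genes summed to 4864, against 3202 to 4396 elsewhere, a sum in which ANXA2 alone stood at 3068. Only 2 of the 6 were highest in RO replicate 2, as many as in DMSO replicate 1, and their mean centred log2 level of 0.073 lay below that of DMSO replicates 1 (0.18) and 3 (0.099). The 10 cardiomyocyte genes had their lowest sum in RO replicate 2, 33740, against 35890 to 42200 elsewhere, a sum in which MYL7 alone stood at 9441. In that library 6 of the 10 were lowest, but nppa was highest (4594). Their mean centred log2 level was -0.18 there and -0.076 to 0.15 elsewhere. In RO replicate 4, lowest for cell cycle genes, the 10 fibroblast and matrix IDs summed to 5498, their lowest, against 5849 to 8365 elsewhere. Only 5 of the 10 were lowest there, and 1 FN1 gene (ENSDARG00000006526) was highest, at 1325. Their mean centred log2 level was -0.32 in RO replicate 4, but also low in RO replicate 3 (-0.16). It was 0.053 in RO replicate 2 and 0.057 to 0.22 in DMSO. The 7 endothelial genes summed to 747 in RO replicate 2, within the 724 to 862 of DMSO, and to 937 and 986.5 in RO replicates 3 and 4. Gene by gene they were mixed, and RO replicate 2 was highest in 0 of the 7 and lowest in 2. Both flt1 and plvapb lay above DMSO in every RO pool and passed the threshold, while TIE1 lay below DMSO in every one. Genes of other lists also differed between the groups. The cardiomyocyte gene myh7ba lay below DMSO in every RO pool and passed, as 1.03% of all genes did. Of the 7 thrombocyte genes 1 passed, higher in RO. All RO pools lay above DMSO in 3 of the 7 (below in 0), against 9.32% of all genes. They lay below it in 5 of the 10 fibroblast and matrix IDs (above in 0), against 9.35%, and 0 of the 10 passed. Sums of 5 neutrophil and 5 erythroid genes in RO replicate 2, 53.1 and 1195, also lay within DMSO (33.6 to 80.5 and 732 to 1517). The neutrophil genes moved in opposite directions in that pool: MMP9 was highest of the 6 libraries (32.1) and lyz lowest (7.54). None of these markers was at 0 in any library, but few values were, 126 over all 14211 genes. Their part in the cell cycle levels was not tested.

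**Figure D4:**
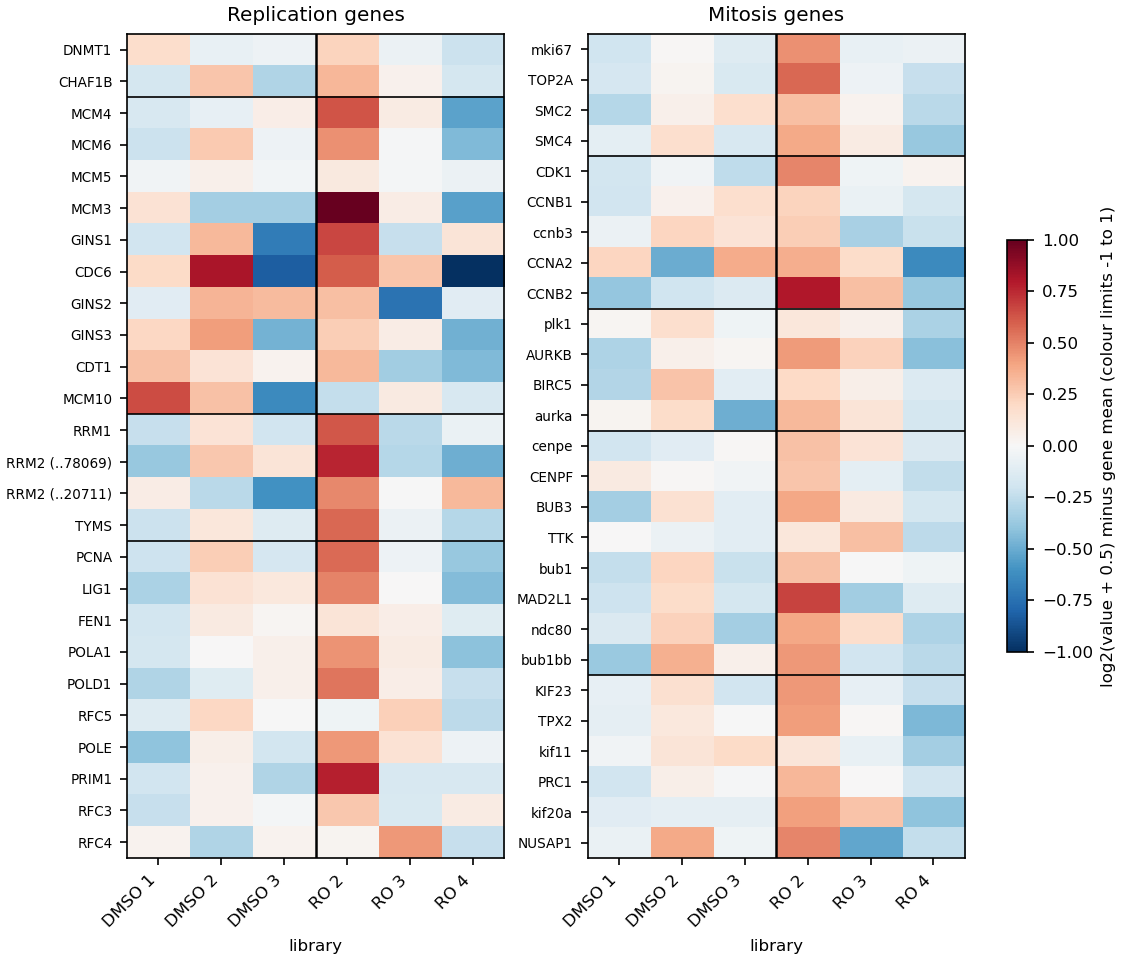
Log2(value + 0.5) of each gene minus its mean over the 6 libraries, replication genes on the left and mitosis genes on the right. Columns are libraries, horizontal lines divide roles, and colours run from -1 (blue) to 1 (red), with values beyond shown at the limit. The column of RO replicate 2 is red for most genes and that of RO replicate 4 mostly blue.

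Replication opens with the loading of the MCM helicase by CDC6 and CDT1 and its activation by MCM10 and the GINS complex. The 10 genes of this step had a median log2 fold change of -0.050, with 5 above and 5 below 0. MCM4 (ENSDARG00000040041), a subunit of the helicase, stood at 34.3, 36.1 and 40.2 in DMSO replicates 1, 2 and 3 and at 59.5, 40.5 and 26.3 in RO replicates 2, 3 and 4. RO spanned the DMSO values on both sides, and the difference was 0.12 ± 0.24 (log2 fold change ± SE, n = 3 per group here and below, limma adjusted p = 0.887).

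MCM3 (ENSDARG00000024204), another subunit, stood at 8.51, 5.94 and 5.95 in DMSO and 15.9, 8.10 and 5.11 in RO, a difference of 0.36 ± 0.35 that turned to -0.053 without RO replicate 2. MCM5 hardly varied, at 27.7 to 29.4 in DMSO and 27.2 to 30.4 in RO, while MCM6 ran from 26.5 to 37.2 in DMSO and from 22.6 to 42.4 in RO. Subunits of 1 complex thus differed in how far RO replicate 2 stood out.

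GINS1 (ENSDARG00000007624), of the complex that activates the helicase, had the largest fold change of this step. It stood at 6.56, 9.55 and 4.47 in DMSO and 12.3, 6.35 and 8.27 in RO (0.37 ± 0.31, limma adjusted p = 0.663). CDC6 (ENSDARG00000009942), a loader of the helicase, stood at 5.35, 8.52 and 2.38 in DMSO and 7.26, 5.69 and 1.95 in RO, on 8 to 33 reads per library, and its pools of 1 group differed by more than the groups (-0.12 ± 0.49). The other loaders and activators, GINS2, GINS3, CDT1 and MCM10, rested on 6 to 21 reads per library and had log2 fold changes of -0.36 to -0.10.

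The polymerases copy the DNA, and the clamp PCNA, loaded by the RFC complex, holds them to it. In this group 9 of 10 genes lay above 0, with a median of 0.11. PCNA (ENSDARG00000054155) stood at 128, 175 and 132 in DMSO and 218, 142 and 113 in RO. Its highest and lowest libraries were both RO pools, and the fold change was 1.06 (95% interval 0.769 to 1.47, limma adjusted p = 0.906).

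POLE (ENSDARG00000058533), the catalytic subunit of the leading-strand polymerase, was nearest to the threshold among them, at 11.7, 16.3 and 13.7 in DMSO and 21.2, 17.3 and 15.1 in RO (0.35 ± 0.19, limma adjusted p = 0.479). RO replicate 4 lay below DMSO replicate 2, so the groups overlapped. PRIM1 (ENSDARG00000040163), the primase that starts each strand, stood at 12.9, 15.2 and 11.9 in DMSO and 25.7, 13.1 and 13.1 in RO. Only RO replicate 2 exceeded the DMSO range there. The difference of 0.30 ± 0.25 turned to -0.014 without that pool and rose to 0.46 without RO replicate 4.

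POLD1 (ENSDARG00000027689), of the lagging-strand polymerase, was also highest in RO replicate 2, at 14.3, 16.3 and 18.5 in DMSO and 26.0, 18.6 and 15.1 in RO (0.25 ± 0.21). The clamp loader gene RFC5 (ENSDARG00000035634) did not: at 16.0, 20.4 and 17.6 in DMSO and 17.04, 20.8 and 14.6 in RO, its value in RO replicate 2 lay within the DMSO range (-0.049 ± 0.18). RFC3, RFC4, POLA1, FEN1 and LIG1, which load the clamp, begin strands, trim flaps and join fragments, had log2 fold changes between 0.046 and 0.15 and adjusted p-values of 0.818 or more.

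Ribonucleotide reductase, made of the RRM1 and RRM2 proteins, supplies the nucleotides of DNA, and thymidylate synthase (TYMS) makes thymidylate. RRM2 (ENSDARG00000020711) had the smallest p of all 53 genes (unadjusted p = 0.0176, limma adjusted p = 0.252). It stood at 33.3, 26.1 and 20.5 in DMSO and 44.1, 31.5 and 39.7 in RO, so that RO replicate 3 fell below DMSO replicate 1 and the groups overlapped. The fold change was 1.45 (95% interval 1.08 to 1.94), and it was the only interval among the 53 that did not hold a fold of 1.

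The second RRM2 gene (ENSDARG00000078069) had another pattern, at 50.8, 79.8 and 72.3 in DMSO and 112, 54.3 and 47.0 in RO, and a difference of -0.011 ± 0.28. How reads shared by both IDs were assigned is not known, so each value is uncertain. RRM1 (ENSDARG00000014017) stood at 58.6, 75.9 and 60.4 in DMSO and 106, 57.2 and 65.9 in RO (0.19 ± 0.21, limma adjusted p = 0.755), and TYMS at 19.7 to 24.8 in DMSO and 18.7 to 34.4 in RO. All 4 genes of nucleotide supply were highest in RO replicate 2, whose level for the group was 0.61 above the mean of the 6 libraries on the log2 scale, the furthest of any role.

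**Figure D5:**
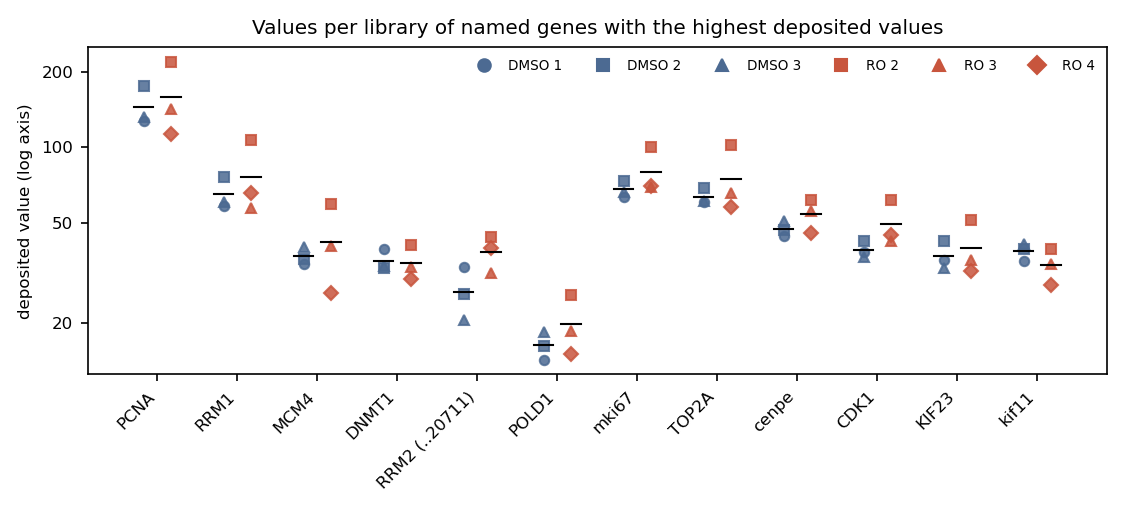
Deposited value per library on a log axis for replication genes (left) and mitosis genes (right), 6 of each. They have the highest values among the genes picked by the naming rule given with the processing. Genes outside that rule, such as the second RRM2 gene (ENSDARG00000078069), are not shown. Symbols are libraries, blue for DMSO and red for RO, and short lines are group means. RO replicate 2 (red squares) is the top point in 11 of the 12, and in kif11 it lies within the DMSO range.

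Chromatin must be copied with the DNA. DNMT1 (ENSDARG00000030756), which restores DNA methylation on the new strand, stood at 39.4, 33.0 and 33.6 in DMSO and 40.8, 33.5 and 29.9 in RO (-0.032 ± 0.15, limma adjusted p = 0.955). CHAF1B (ENSDARG00000056473), which helps to place histones behind the fork, stood at 10.5, 14.5 and 9.53 in DMSO and 15.1, 12.3 and 10.5 in RO (0.14 ± 0.22). The groups overlapped in both genes.

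Entry into mitosis is driven by CDK1 with its cyclins A and B. CDK1 (ENSDARG00000087554) had the smallest p of the mitosis genes, at 38.4, 42.6 and 36.6 in DMSO and 61.4, 42.5 and 44.8 in RO. RO replicates 2 and 4 lay above the DMSO values, and RO replicate 3 lay just below DMSO replicate 2. The fold change was 1.25 (95% interval 0.981 to 1.58, limma adjusted p = 0.422).

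CCNB2 (ENSDARG00000036180), a B cyclin, had the largest fold change of the mitosis genes and few reads, 11 to 24 per library. It stood at 2.67, 3.10 and 3.27 in DMSO and 6.70, 4.60 and 2.68 in RO (0.48 ± 0.34, limma adjusted p = 0.610). The gene ccnb3 (ENSDARG00000034855), another B cyclin, had the lowest, at 8.27, 10.1 and 9.53 in DMSO and 10.3, 6.79 and 7.30 in RO (-0.20 ± 0.22). CCNB1 stood at 29.7 to 38.1 in DMSO and 29.9 to 39.7 in RO, and CCNA2 at 5.16 to 9.82 and 4.62 to 9.78, and the log2 fold changes of the cyclins lay on both sides of 0.

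Among the mitotic kinases, plk1 (ENSDARG00000058471), which acts at centrosomes and kinetochores, stood at 31.1, 34.6 and 29.8 in DMSO and 33.2, 31.8 and 24.6 in RO (-0.10 ± 0.15, limma adjusted p = 0.835). RO replicate 2 lay within the DMSO range. The spindle pole kinase gene aurka (ENSDARG00000012485) stood at 8.75, 9.81 and 5.95 in DMSO and 10.9, 9.42 and 7.54 in RO (0.19 ± 0.24). AURKB and BIRC5, of the chromosomal passenger complex that checks attachment, had log2 fold changes of 0.16 and 0.081.

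The spindle checkpoint holds chromosomes back until each is attached at its kinetochore. Of the 8 genes of checkpoint and kinetochore 6 lay above 0, with a median of 0.15, and 7 were highest in RO replicate 2. The gene cenpe (ENSDARG00000063385), a kinetochore motor, stood at 44.2, 46.7 and 50.9 in DMSO and 62.0, 55.6 and 45.7 in RO. RO replicates 2 and 3 lay above all DMSO values and RO replicate 4 among them (0.19 ± 0.14, limma adjusted p = 0.619). MAD2L1, a checkpoint protein, stood at 13.1 to 17.3 in DMSO and 11.8 to 24.6 in RO. The log2 fold changes of BUB3, bub1, bub1bb, TTK, ndc80 and CENPF ran from -0.046 to 0.20.

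Kinesins push the spindle poles apart and bundle the midzone where the cell divides. Of the 6 genes of spindle motors and midzone, not all of them kinesins, 3 lay above and 3 below 0. The motor gene kif11 (ENSDARG00000010948) stood at 35.2, 39.5 and 41.4 in DMSO and 39.4, 34.4 and 28.5 in RO (-0.19 ± 0.15, limma adjusted p = 0.649). RO replicates 3 and 4 lay below all DMSO values. NUSAP1 (ENSDARG00000002403), which bundles microtubules, stood at 17.3, 23.7 and 17.6 in DMSO and 25.7, 12.5 and 15.3 in RO, and its RO pools lay on either side of DMSO (-0.18 ± 0.25). The midzone motor gene KIF23 (ENSDARG00000014943) stood at 35.7, 42.3 and 33.0 in DMSO and 51.4, 35.7 and 32.1 in RO (0.078 ± 0.18), and TPX2, PRC1 and kif20a had log2 fold changes of -0.0097, 0.096 and 0.20.

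Genes of chromosome structure are those by which dividing cells are often counted. The gene mki67 (ENSDARG00000091150), whose protein coats mitotic chromosomes and is the usual marker of cycling cells, stood at 63.7, 73.6 and 66.7 in DMSO and 100.5, 69.6 and 70.1 in RO. RO replicates 3 and 4 lay within the DMSO range, and the fold change was 1.16 (95% interval 0.919 to 1.47, limma adjusted p = 0.609). TOP2A (ENSDARG00000024488), which untangles DNA, stood at 60.5, 69.2 and 61.0 in DMSO and 102, 65.7 and 57.9 in RO (0.20 ± 0.19), a difference that turned to -0.041 without RO replicate 2. SMC2 and SMC4, the core of condensin, had log2 fold changes of 0.044 and 0.059.

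Other genes of the same processes were read from lists named by process. None passed among 43 further replication and S phase genes, 42 further mitosis genes and 26 regulators of G1, while 1.03% of all genes did. At an unadjusted p below 0.05 the lists held 0, 1 and 4 genes in that order, against 13.4% of all genes. RO replicate 2 was highest in 25 of the 43 (58.1%) and 33 of the 42 (78.6%), but in 7 of the 26 G1 regulators (26.9%), against 21.8% of all genes.

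WDHD1 (ENSDARG00000015998), which ties the helicase to a polymerase, stood at 8.51, 12.7 and 10.7 in DMSO and 17.6, 15.8 and 10.7 in RO (0.44 ± 0.23, limma adjusted p = 0.457). The S phase gene cdca7b (ENSDARG00000076659) stood at 6.56, 10.1 and 10.1 in DMSO and 6.42, 7.01 and 4.62 in RO (-0.52 ± 0.25). RPA1 (ENSDARG00000003938), which binds single-stranded DNA, and the histone chaperone gene SUPT16H (ENSDARG00000079949) had log2 fold changes of 0.033 and -0.084.

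WEE1 (ENSDARG00000093864), the kinase that restrains CDK1, stood at 22.6, 24.5 and 25.6 in DMSO and 40.5, 31.1 and 30.7 in RO. The groups did not overlap, as in 18.7% of all genes, and the difference of 0.47 ± 0.15 missed the threshold (limma adjusted p = 0.189). ECT2 (ENSDARG00000007278), which sets up cytokinesis, stood at 15.8, 12.1 and 13.7 in DMSO and 13.7, 8.54 and 7.54 in RO (-0.50 ± 0.23). The cytokinesis gene anln (ENSDARG00000060917) and LMNB1 (ENSDARG00000044299), of the nuclear lamina, were both highest in RO replicate 2 and had log2 fold changes of 0.14 each.

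Of the G1 regulators, MYC (ENSDARG00000007241), the growth factor-induced transcription factor, stood nearest to the threshold. Its values were 208, 209 and 152 in DMSO and 130, 131 and 99.8 in RO, without overlap (-0.66 ± 0.15, limma adjusted p = 0.0820). DESeq2 on the recovered reads called it (adjusted p = 0.00740), as did limma without DMSO replicate 3 (adjusted p = 0.0466), and over all alternatives the adjusted p ran from 0.00740 to 0.262. CDKN1B (ENSDARG00000029018), an inhibitor of cyclin-dependent kinases, stood at 29.7, 31.0 and 28.9 in DMSO and 42.7, 44.7 and 31.9 in RO (0.39 ± 0.15, limma adjusted p = 0.292), also without overlap. Each symbol had a second ID with fewer reads, and for these the log2 fold change was 0.57 ± 0.31 (MYC, ENSDARG00000045695) and 0.20 ± 0.44 (CDKN1B, ENSDARG00000054271). In all, 7 of the 26 G1 regulators had groups that did not overlap, 3 higher and 4 lower in RO, against 18.7% of all genes. Among the 43 further replication and S phase genes the count was 0. Among the 42 further mitosis genes it was 2, WEE1 included, both higher in RO.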

How the data were processed

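TruSeq libraries were made from polyA RNA of 6 pools (labels' protocols). Zv9 is the build in the submitters' processing notes, beside RSEM 1.2.3, edgeR, Bowtie2 2.0.6, CASAVA 1.8 and cutadapt 1.6.1, whose roles are not stated. Annotation release and strand were not given in the sources used here, and reads of overlapping genes may be mixed. What the authors deposited is a signal, scaled by library. Each value is a whole number of reads divided by a factor that all genes of a library share: 100% were whole within 0.01 read, and 1 read was worth 0.219 to 0.298. Every gene lay above 1 in at least 3 libraries. Values are not corrected for length, so levels are not compared between genes. Symbols, often in human form, came from a table that named 11589 of the 14211 IDs. No coordinates or sequences are given.

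Values were tested as log2(value + 0.5) with limma 3.58.1 (limma-trend, R 4.3.3), without covariates, after a minimum of 1 in 3 libraries that removed no gene. P-values are Benjamini-Hochberg adjusted over 14211 genes. The fit was tested on simulated counts, drawn for each gene on its own. They held no difference shared by many genes of a pool, so that test does not cover such differences. Fold changes understate those of low genes. Alternatives included edgeR 4.0.16 and DESeq2 1.42.0 on recovered reads. Members and lists were chosen with earlier results of these data known. Named are, per role, the members with the smallest p and the highest level, per set the 5 smallest p and 3 highest and lowest fold changes at a mean of at least 5, and per other list the 2 smallest p and 2 highest levels. Other members are given by range. Libraries of a group differed beyond counting noise (chi-square per degree of freedom 5.02 to 11.7). The largest values, 11.7 and 8.33, both came from pairs with RO replicate 2, and the other pairs gave 5.02 to 6.29.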

Additional observations from a re-analysis of the deposited data

How the results depend on the processing

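No member passed under any of the 19 alternative fits, at an adjusted p of 0.1 or with exact symbols only. The lowest adjusted p of a member was 0.0622, for RRM2 (ENSDARG00000020711) with the replicate block. That fit compares only replicates 2 and 3 of the groups, not all 6 libraries. Among the 3 other cell cycle lists, 1 gene, MYC, was called with DESeq2, without DMSO replicate 3 and at an adjusted p of 0.1, so leaving out 1 library gave 0 to 1. Over all genes 147 were called, against 240 with DESeq2, 1 without the mean-variance trend, 405 with the replicate block, 318 at an adjusted p of 0.1 and 22 to 105 when 1 library was left out. The cause of these shifts was not tested.

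DMSO and RO libraries share the numbers 2 and 3, and the labels do not say that a number pairs them. Deviations from the group means correlated at 0.116 and 0.0913 across genes for the 2 shared numbers. Between libraries of unlike numbers the correlations ran from -0.116 to 0.0433, and whether the numbers mark a pairing was not tested. DMSO replicate 1 and RO replicate 4 have no partner of the same number. Fold changes with the replicate block therefore rested on replicates 2 and 3 alone, without RO replicate 4, the pool lowest for cell cycle genes. With the replicate block the median log2 fold changes were 0.20 for replication and 0.19 for mitosis genes, with 45 of 53 above 0. The share of all genes above 0 under the block is not given here. The direction of CDC6 (0.44), DNMT1 (0.15) and plk1 (0.018) turned under the block, and that of RFC5 with array weights (0.021).

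Leaving out 1 library in turn also turned directions, for genes near 0 and for some with larger differences, such as MCM3 and PRIM1. The log2 fold changes then ran from -0.053 to 0.72 for MCM3, -0.17 to 0.41 for MCM4, -0.17 to 0.30 for PCNA, -0.071 to 0.37 for RRM1, -0.57 to 0.38 for CDC6, -0.014 to 0.46 for PRIM1, -0.18 to 0.070 for RFC5, -0.15 to 0.068 for DNMT1, -0.18 to 0.032 for plk1, -0.012 to 0.33 for aurka, -0.12 to 0.21 for KIF23, -0.041 to 0.36 for TOP2A, -0.47 to 0.040 for NUSAP1, -0.066 to 0.14 for RPA1, -0.12 to 0.34 for anln and -0.0088 to 0.23 for LMNB1. The 6 members whose intervals reached past 2-fold all had fewer than 60 reads in every library. Other members with so few reads, such as GINS3, CDT1 and RFC4, had intervals within 2-fold, and the part of depth was not tested.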
